A study of Oryza sativa with 8 samples.

Results

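Photosystem I is the light-driven enzyme of the chloroplast thylakoid membrane that takes electrons from plastocyanin and passes them to ferredoxin. Its reaction centre is encoded in the chloroplast genome, while the nucleus encodes the smaller subunits measured here and the light-harvesting proteins Lhca1 to Lhca4, which bind chlorophyll around the core. Chloroplast proteins hold a large share of the nitrogen of a leaf, and genes of the light reactions are well known to respond to nitrogen supply in cereals.

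The nuclear genes of photosystem I followed here were 10 rice loci, namely the antenna genes Lhca1, Lhca2, Lhca3 and Lhca4 and the subunit genes PSAD, PSAF, PSAG, PSAH, PSAK and PSAL. They were taken by name: each probe set of the array that was annotated with exactly 1 of these loci was included. This gave 15 probe sets, of 57194 probe sets on the array other than controls and of 25727 loci with a probe set of their own. Of the 15, 14 were bright enough to be tested, and the exception was the dimmer of the 2 probe sets of Lhca2. The reference table used here held all 10 gene IDs, but only PSAH carried a matching gene name in it, so the other names rest on the list of loci.

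RNA came from shoots of rice seedlings of 2 released varieties, Varadan and Prasanna, grown in hydroponics. Seeds germinated for 7 days, and seedlings then spent 10 days in Yoshida medium, a standard mineral solution for rice, that held nitrogen. After that they stood in Yoshida medium either lacking nitrogen or with supplemented nitrogen. The shoots are labelled as 14 days old, which is less than the 17 days of both stages together, and no label gives the time spent in the final medium. The 4 groups were Varadan without nitrogen, Varadan with supplemented nitrogen, Prasanna without nitrogen and Prasanna with supplemented nitrogen, each with 2 Affymetrix arrays. The labels do not say whether the 2 arrays of a group came from separate plants, so p-values measure the spread between arrays, which may be technical. In shoot RNA, fewer mesophyll cells and less RNA per cell cannot be told apart.

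The shoot label was set against marker genes. The 3 loci of the Rubisco small subunit, the most abundant leaf transcripts, had log2 signals of 14.69 to 17.10 on the 8 arrays. Their summed signal was 92891 and 155472 in Varadan without nitrogen, 351137 and 252907 in Varadan with supplemented nitrogen, 109596 and 164879 in Prasanna without nitrogen, and 209613 and 217408 in Prasanna with supplemented nitrogen. It was lowest on the first Varadan replicate without nitrogen and highest on the first Varadan replicate with supplemented nitrogen, the same arrays as for most photosystem I loci below. Of 5 root marker loci, the silicon channel gene Lsi1 had log2 signals of 9.58 to 10.31 on all 8 arrays. On the first replicate of either no-nitrogen group, 0 of the 5 root markers were under the brightness needed for testing, against 1 or 2 on each other array. The summed root-marker signal was 1171 and 1169 in Varadan without nitrogen, 1127 and 1016 in Varadan with supplemented nitrogen, 920 and 1081 in Prasanna without nitrogen, and 1392 and 1201 in Prasanna with supplemented nitrogen. Lsi1, the brightest of these markers, weighs most in that sum. A sum of the log2 signals of the 5 root markers gives the dim ones more weight. It was highest on the first no-nitrogen replicates, at 35.07 in Varadan and 30.18 in Prasanna, against 23.77 to 28.97 on the other arrays. Within both no-nitrogen groups Lsi1 went the other way. It was at 9.63 on replicate 1 and 10.04 on replicate 2 in Varadan, and at 9.58 and 9.96 in Prasanna. So did QHB, at 5.59 and 5.87 in Varadan and 4.75 and 4.87 in Prasanna. The other root markers, Lsi2, WOX11 and RCc3, were higher on replicate 1 in both groups, and Lsi2 and RCc3 were too dim to be tested. The part of these markers in the results below was not tested.

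Signals are MAS5 values on a log2 scale, so a difference of 1 is a doubling, and every array has the same trimmed mean. A level can be set against another level of the same probe set only, since probe sets of different genes differ in how they bind. Across the 8 arrays and 4 groups, 0 of the 14 tested probe sets passed an adjusted p of 0.05 in any of the 6 comparisons of nitrogen or variety, by limma with Benjamini-Hochberg adjustment over all 34333 tested probe sets. The values below therefore describe levels and how the arrays lie.

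**Figure D1:**
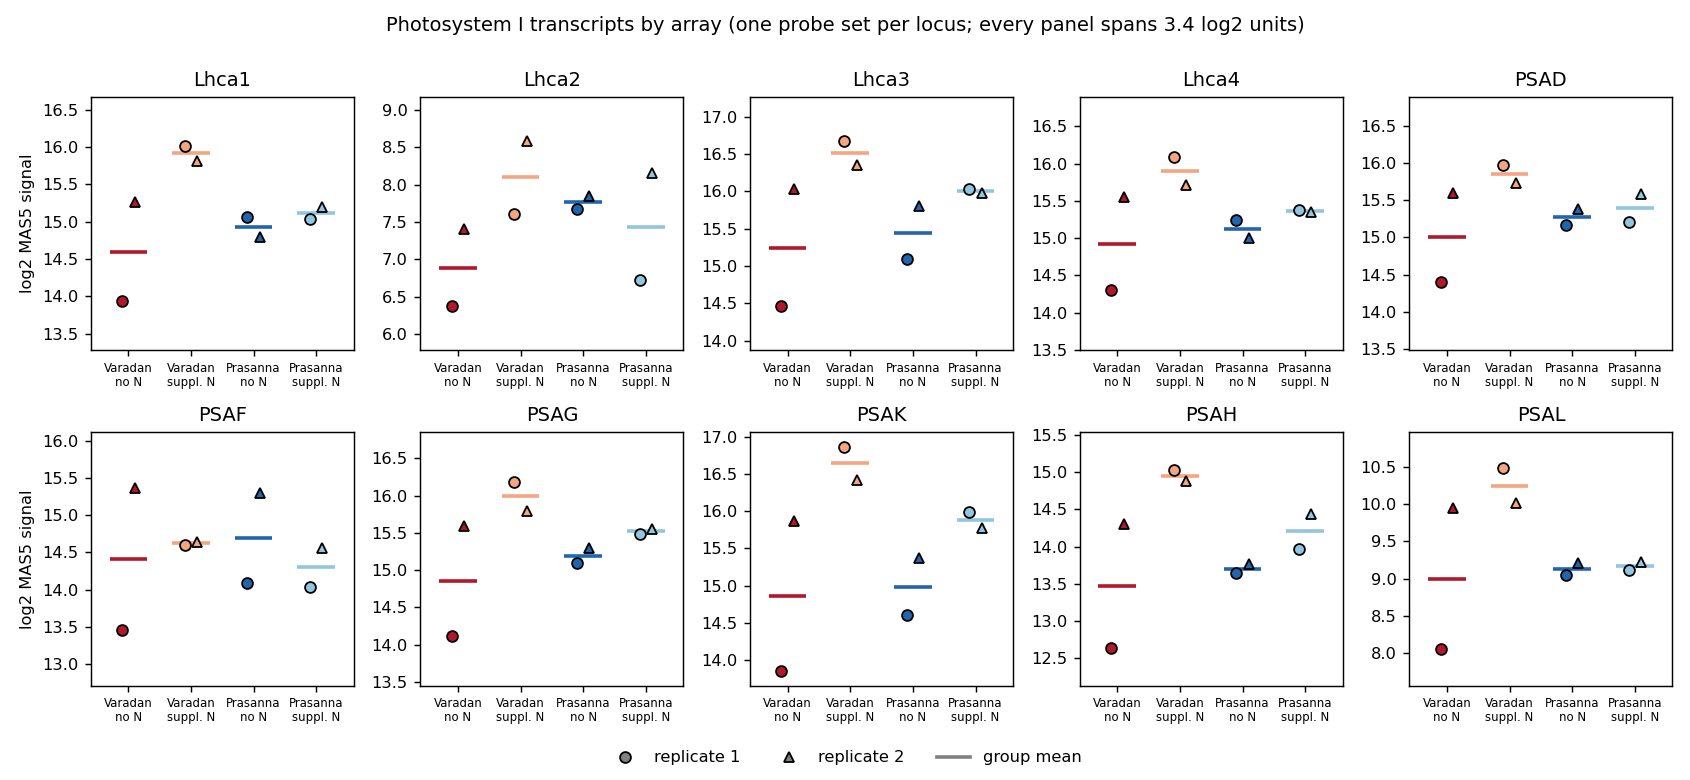
MAS5 log2 signal (vertical axis) of each of the 10 photosystem I loci in the 4 groups, each panel with its own axis, circles for replicate 1, triangles for replicate 2 and a bar for the group mean. The first replicate of Varadan without nitrogen is the lowest of the 8 arrays for all 10 loci, and the first replicate of Varadan with supplemented nitrogen is the highest for 8 of them.

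Averaged over both varieties, nitrogen withdrawal went with lower signals of 9 of the 10 loci (52% of all tested probe sets had a negative estimate), with a median log2 difference of -0.69 over the 10 loci, against 0.02 over all 21510 loci tested. None of these differences passed the test: 0 of 14 member probe sets were called by limma, against 0.183% of all tested probe sets, and 4 had an unadjusted p under 0.05, against 13.4%. Without the first no-nitrogen replicate of Varadan the median over the 10 loci was -0.33, and without the second it was -1.09. The most negative estimate was that of PSAK, at -1.33 ± 0.44 (SE), and the exception was PSAF, at 0.09 ± 0.46.

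The 4 antenna genes come first. Lhca1 and Lhca4 proteins form one of the antenna dimers on the side of the core, and Lhca2 and Lhca3 proteins form the other. Lhca1 (Os06g0320500) had log2 signals of 13.94 and 15.26 in Varadan without nitrogen, against 16.02 and 15.81 in Varadan with supplemented nitrogen. In Prasanna the values were 15.06 and 14.80 without nitrogen, against 15.04 and 15.20 with supplemented nitrogen. The Varadan groups did not overlap, and the Prasanna groups did. The nitrogen difference of Lhca1 was -1.32 ± 0.43 in Varadan (95% interval -2.32 to -0.31, adjusted p = 0.468, limma) and -0.19 ± 0.43 in Prasanna (adjusted p = 0.952).

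Lhca4 (Os08g0435900), the dimer partner of Lhca1, lay in much the same way. Its log2 signals were 14.30 and 15.55 in Varadan without nitrogen, against 16.09 and 15.71 in Varadan with supplemented nitrogen. The Prasanna arrays read 15.25 and 15.00 without nitrogen, against 15.37 and 15.35 with supplemented nitrogen. In both varieties the no-nitrogen arrays were below the supplemented ones, by small margins of 0.16 in Varadan and 0.10 in Prasanna. The difference was -0.97 ± 0.42 in Varadan (adjusted p = 0.561) and -0.23 ± 0.42 in Prasanna (adjusted p = 0.943, both limma). The 3 probe sets of Lhca4 gave averages over both varieties of -0.60, -0.78 and -0.90. The one shown is of a kind that can also bind related transcripts (its name ends in _x_at), as is that of PSAG.

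Lhca3 (Os02g0197600) had log2 signals of 14.46 and 16.03 in Varadan without nitrogen, against 16.68 and 16.36 in Varadan with supplemented nitrogen. Prasanna gave 15.09 and 15.80 without nitrogen, against 16.03 and 15.97 with supplemented nitrogen. All 4 no-nitrogen arrays lay below the supplemented arrays of their own variety, with the first replicate the lower one in each. The average difference over both varieties was -0.92 ± 0.37 (adjusted p = 0.345, limma).

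Lhca2 (Os07g0577600) was the dimmest of the antenna probe sets and the least regular. Its log2 signals were 6.37 and 7.40 in Varadan without nitrogen, against 7.61 and 8.59 in Varadan with supplemented nitrogen. In Prasanna they were 7.67 and 7.85 without nitrogen, against 6.72 and 8.16 with supplemented nitrogen. The Varadan groups did not overlap, while the Prasanna no-nitrogen values lay between the 2 supplemented ones. The estimates had opposite signs, -1.21 ± 0.63 in Varadan (adjusted p = 0.603) and 0.33 ± 0.63 in Prasanna (adjusted p = 0.945, both limma). Its second probe set read 0.65 to 5.61 over the arrays and was not tested.

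PSAD and PSAF are the docking subunits. PSAD sits on the stromal side, where ferredoxin binds, and PSAF on the lumenal side, where plastocyanin binds. PSAD (Os08g0560900) had log2 signals of 14.41 and 15.60 in Varadan without nitrogen, against 15.97 and 15.73 in Varadan with supplemented nitrogen. Prasanna gave 15.17 and 15.38 without nitrogen, against 15.20 and 15.58 with supplemented nitrogen. The groups overlapped in Prasanna and not in Varadan, where the second replicate came within 0.14 of the lower supplemented array. The nitrogen difference was -0.85 ± 0.41 in Varadan (adjusted p = 0.587) and -0.12 ± 0.41 in Prasanna (adjusted p = 0.975, both limma).

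PSAF (Os03g0778100) lay apart from the other 9 loci. Its log2 signals were 13.46 and 15.37 in Varadan without nitrogen, against 14.60 and 14.64 in Varadan with supplemented nitrogen. In Prasanna they were 14.09 and 15.29 without nitrogen, against 14.04 and 14.56 with supplemented nitrogen. The supplemented arrays fell between the 2 no-nitrogen arrays in Varadan, and the second no-nitrogen replicate was the highest array of its variety in both. PSAF was the only one of the 10 loci with that second feature, which 10.7% of all tested probe sets had. Its average difference was 0.09 ± 0.46 (95% interval -0.98 to 1.17, adjusted p = 0.944, limma), which leaves room for a log2 difference of this size in either direction.

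PSAG and PSAK are related membrane subunits on the edges of the core, PSAG beside the Lhca1 and Lhca4 dimer and PSAK on the opposite flank beside Lhca3. PSAK (Os07g0148900) had log2 signals of 13.86 and 15.87 in Varadan without nitrogen, against 16.86 and 16.42 in Varadan with supplemented nitrogen. Prasanna gave 14.61 and 15.37 without nitrogen, against 15.99 and 15.77 with supplemented nitrogen. No-nitrogen arrays were lower in both varieties with no overlap, and the first replicate was again the lower one. Over both varieties the signal without nitrogen was 0.397 times that with supplemented nitrogen, a log2 difference of -1.33 ± 0.44 (95% interval -2.37 to -0.30), with an adjusted p of 0.278 by limma. The variety estimates were -1.77 ± 0.62 in Varadan (adjusted p = 0.488) and -0.89 ± 0.62 in Prasanna (adjusted p = 0.844, both limma).

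PSAG (Os09g0481200) had log2 signals of 14.12 and 15.59 in Varadan without nitrogen, against 16.18 and 15.79 in Varadan with supplemented nitrogen. In Prasanna the signals were 15.09 and 15.29 without nitrogen, against 15.49 and 15.55 with supplemented nitrogen. On this probe set both varieties were without overlap, by narrow margins apart from the first Varadan replicate. The average difference was -0.73 ± 0.33 (adjusted p = 0.393), and the second probe set of PSAG gave -1.01 ± 0.59 (adjusted p = 0.484, both limma). On that second probe set the Varadan groups did not overlap, but the Prasanna groups did. The Prasanna signals there were 8.80 and 10.52 without nitrogen, against 9.92 and 10.50 with supplemented nitrogen.

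PSAH and PSAL lie together on the side of the core where the antenna of photosystem II can dock during state transitions. PSAH (Os05g0560000) had log2 signals of 12.64 and 14.31 in Varadan without nitrogen, against 15.03 and 14.88 in Varadan with supplemented nitrogen. Prasanna gave 13.65 and 13.76 without nitrogen, against 13.97 and 14.44 with supplemented nitrogen. Neither variety had an overlap, and the gap was wider in Varadan. The difference was -1.48 ± 0.51 in Varadan (adjusted p = 0.484) and -0.50 ± 0.51 in Prasanna (adjusted p = 0.880, both limma).

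PSAL (Os12g0420400) had log2 signals of 8.05 and 9.94 in Varadan without nitrogen, against 10.48 and 10.01 in Varadan with supplemented nitrogen. In Prasanna all 4 arrays lay close together, at 9.05 and 9.21 without nitrogen, against 9.12 and 9.22 with supplemented nitrogen. The Varadan groups were separated by 0.07 only, since the second no-nitrogen replicate nearly reached the lower supplemented array. The difference was -1.25 ± 0.57 in Varadan (adjusted p = 0.576) and -0.04 ± 0.57 in Prasanna (adjusted p = 0.995, both limma). The second, dimmer probe set of PSAL gave an average over both varieties of -0.26 ± 0.59. On that probe set the nitrogen groups overlapped within both varieties, and the varieties overlapped at both nitrogen levels.

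**Figure D2:**
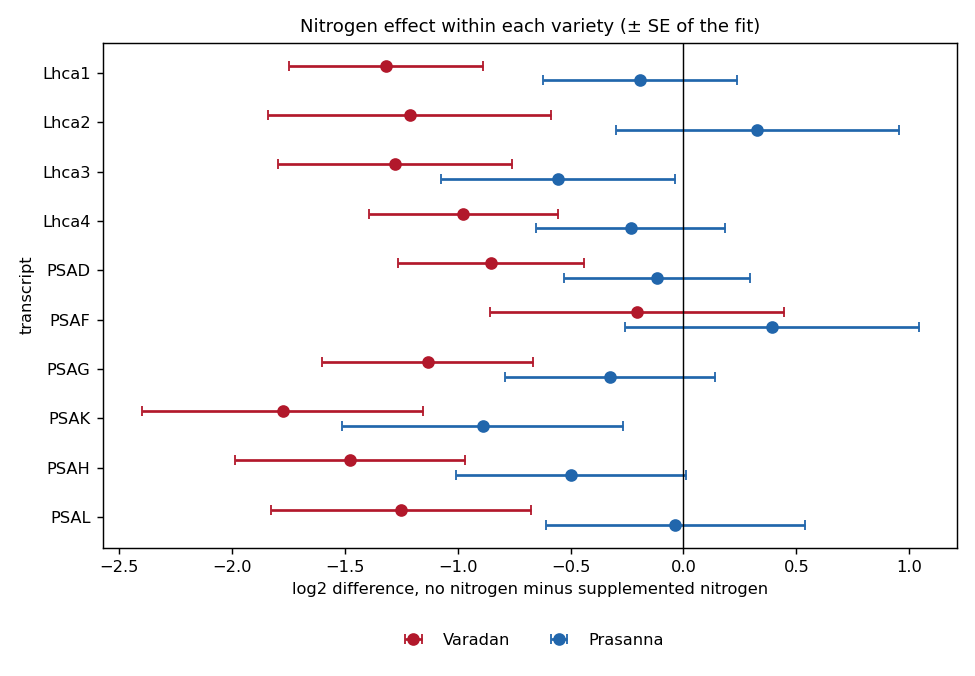
Log2 difference without minus with supplemented nitrogen for each locus in Varadan and in Prasanna. Points carry bars of 1 SE from limma, and 0 means no difference. All 10 Varadan estimates and 8 of 10 Prasanna estimates lie below 0, and the bars of PSAF and of most Prasanna estimates cross 0.

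The varieties can be set side by side. In Varadan, the no-nitrogen arrays were both below both supplemented arrays for 9 of 10 loci, all but PSAF, against 23.9% of all tested probe sets. In Prasanna this held for 5 of 10 loci (Lhca3, Lhca4, PSAG, PSAK and PSAH), against 17.7%. The same 5 loci had it in both varieties, against 8.44%. These counts rest on the brightest probe set of each locus. On the second probe sets, PSAG overlapped in Prasanna and PSAL in both varieties. The estimates were negative for 10 of 10 loci in Varadan (53.7% of all tested probe sets) and for 8 of 10 in Prasanna (50.2%). The median nitrogen difference over the 10 loci was -1.23 in Varadan, where 0 of 14 probe sets were called (0.00291% of all) and 7 had an unadjusted p under 0.05 (8.94% of all). In Prasanna the median was -0.21, again with 0 of 14 called (0% of all) and with 0 at an unadjusted p under 0.05 (6.63% of all). The medians over all loci tested were -0.003 in Varadan and 0.03 in Prasanna.

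The difference between the 2 nitrogen differences was itself fitted, as Varadan minus Prasanna. It was negative for all 10 loci (52.3% of all tested probe sets), with a median of -0.85, a largest size of -1.54 ± 0.89 for Lhca2 and -0.60 ± 0.92 for PSAF. No probe set of the 14 was called by limma (0% of all tested), and 0 had an unadjusted p under 0.05 (2.08% of all), so the larger Varadan estimates are not shown to differ from those of Prasanna. Without the first no-nitrogen replicate of Varadan the median was -0.13, and without the second it was -1.67. For Lhca1, the 95% interval of the difference ran from -2.55 to 0.30.

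How far these values rest on single arrays was looked at array by array. Set against the mean of the supplemented arrays of its variety, the first no-nitrogen replicate of Varadan had a median of -1.92 over the 10 loci (range -2.78 to -1.16), and the second a median of -0.45 (range -0.77 to 0.75). In Prasanna the medians were -0.21 for the first replicate (range -1.27 to 0.24) and -0.22 for the second (range -0.51 to 0.99). The Varadan values were thus lowest on 1 array, and the second was also below both supplemented arrays for 9 of the 10 loci (37.7% of all tested probe sets). In Varadan without nitrogen all 10 loci were lower on replicate 1 than on replicate 2 (53.1% of all tested probe sets), by 1.03 to 2.0 with a median of 1.52. In Prasanna without nitrogen the same was seen for 8 of 10 loci (48.7% of all). On 17.1% of all tested probe sets the first Varadan replicate without nitrogen was the lowest of the 8 arrays, as it was for all 10 loci. The first Varadan replicate with supplemented nitrogen was the highest array for 8 of the 10 loci (16.5% of all).

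**Figure D3:**
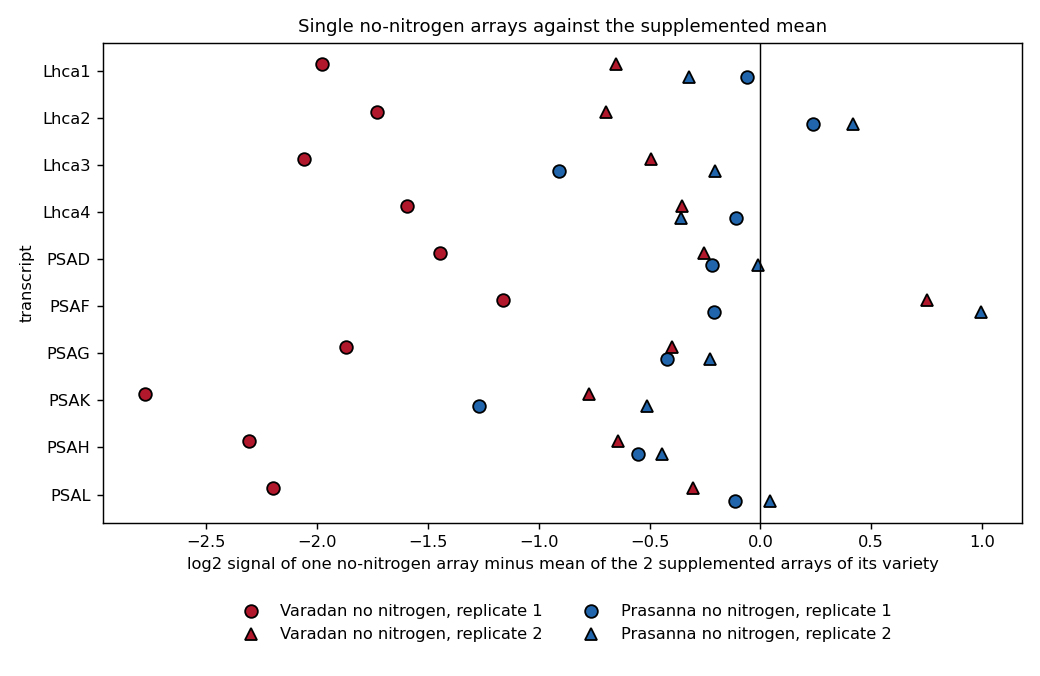
Log2 signal of each no-nitrogen array minus the mean of the 2 supplemented arrays of the same variety, for the 10 loci. The first Varadan replicate lies between -2.78 and -1.16, below the second for every locus, while the Prasanna replicates differ most at PSAF, PSAK and Lhca3.

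The first Prasanna replicate without nitrogen did not treat the loci alike. It was 1.27 below the supplemented mean for PSAK, 0.91 below for Lhca3, 0.55 below for PSAH and 0.42 below for PSAG. It was 0.06 below for Lhca1 and 0.11 below for Lhca4, and 0.24 above for Lhca2. PSAD, PSAF and PSAL lay between PSAG and Lhca4. Some 3' minus 5' measures of RNA were lowest on the first no-nitrogen replicates of both varieties, and other measures were not. Such a measure rises with the excess of signal at the 3' end, so a low value does not mean poor RNA quality. The log2 signal at the 3' end of cyclophilin minus that at its 5' end was 1.0 on the first no-nitrogen replicate of Varadan and 0.743 on that of Prasanna, against 1.17 to 1.62 on the other 6 arrays. The same measure for ubiquitin was -0.12 and -0.01 on these 2 arrays, against 0.12 to 0.73 on the other 6. For actin it was 4.40 on the Varadan array, inside the range of the other arrays, and 3.84 on the Prasanna array, the lowest of the 8. The log2 signal of 18S ribosomal RNA was 14.17 and 13.26 in Varadan without nitrogen, 13.51 and 12.85 in Varadan with supplemented nitrogen, 15.49 and 13.51 in Prasanna without nitrogen, and 14.18 and 13.11 in Prasanna with supplemented nitrogen. It was highest on the first Prasanna replicate without nitrogen, while the first Varadan one lay level with a supplemented Prasanna array. A second 18S control was highest on both first no-nitrogen replicates, at 15.91 in Prasanna and 14.82 in Varadan. It read 12.65 to 13.95 on the other 6 arrays. The part of these RNA measures in the results was not tested.

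Leaving out both first no-nitrogen arrays left 0 of 14 probe sets called for the average over varieties (3.5% of all). The smallest adjusted p among the members was then that of PSAF, at 0.0541 by limma, with an estimate of 0.87 ± 0.19 towards higher signal without nitrogen. Leaving out both second no-nitrogen arrays gave 12 of 14 probe sets called for the average (17.6% of all), 12 for Varadan (9.61% of all) and 1 for Prasanna (7.43% of all), all lower without nitrogen. The probe sets called in the first 2 comparisons covered 9 of the 10 loci, all but Lhca2, and the Prasanna one was PSAK, at -1.27 (adjusted p = 0.032, limma). Each no-nitrogen group is then a lone array that is assumed to vary like the supplemented ones. PSAF was then at -0.69 (adjusted p = 0.048, limma), so that its sign depended on which replicates were kept.

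With supplemented nitrogen, the signal was higher in Varadan than in Prasanna for all 10 loci in the estimates (48.2% of all tested probe sets had a negative one), which ran from 0.32 for PSAF to 1.08 for PSAL with a median of 0.60, against -0.01 over all loci tested. Both Varadan arrays were above both Prasanna arrays for 9 of 10 loci, all but Lhca2, against 23.5% of all tested probe sets. Lhca1 is an example, at 16.02 and 15.81 in Varadan, against 15.04 and 15.20 in Prasanna, a difference of 0.80 ± 0.43 (adjusted p = 0.786, limma). For PSAL the difference was 1.08 ± 0.57 (95% interval -0.27 to 2.43, adjusted p = 0.778, limma). On the second probe set of PSAL the varieties overlapped. None of the 14 probe sets was called by limma (0.693% of all), and 0 had an unadjusted p under 0.05 (7.69% of all).

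The scale of the arrays moved with this comparison. The 2 Varadan arrays with supplemented nitrogen had the highest medians over all probe sets, 6.26 and 6.04, against 5.59 to 6.01 on the other 6. After quantile normalization, which gives every array the same distribution, the median over the 10 loci was 0.23 in place of 0.60, and 6 of 10 loci had Varadan above Prasanna without overlap, against 20.6% of all. The same step brought the nitrogen medians to -0.43 for the average, -0.74 in Varadan and -0.08 in Prasanna, with 5 loci without overlap in Varadan (20% of all) and 3 in Prasanna (16.4% of all).

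Without nitrogen, the order of the varieties in the estimates was the opposite, with Varadan lower than Prasanna for all 10 loci (52.6% of all tested probe sets had a negative estimate), with a median difference of -0.25 and a range of -0.88 to -0.12. Only Lhca2 was without overlap, at 6.37 and 7.40 in Varadan, against 7.67 and 7.85 in Prasanna (15.2% of all tested probe sets lay this way). For the other 9 loci the 2 Varadan arrays reached across the Prasanna range. None of the 14 probe sets was called by limma (0.763% of all), and 0 had an unadjusted p under 0.05 (6.36% of all). Without the first no-nitrogen replicate of Varadan the median was 0.50, so the direction rested on that array.

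**Figure D4:**
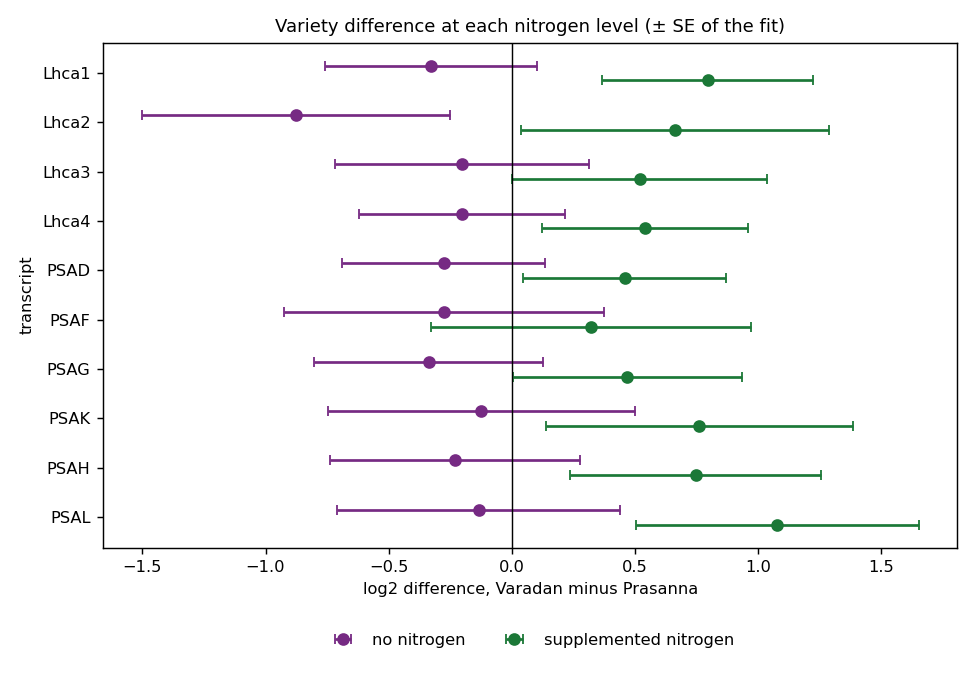
Log2 difference Varadan minus Prasanna for each locus without nitrogen and with supplemented nitrogen, as points with bars of 1 SE from limma; 0 means no difference. Points without nitrogen lie between -0.88 and -0.12 and points with supplemented nitrogen between 0.32 and 1.08, and none passed the test.

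The order of the 4 group means was the same for 8 of the 10 loci, against 7.33% of all tested probe sets, with Varadan with supplemented nitrogen highest, then Prasanna with supplemented nitrogen, Prasanna without nitrogen and Varadan without nitrogen. Of the neighbours in that order, the supplemented groups were without overlap for all 8 loci (23.5% of all tested probe sets). The Prasanna groups were so for 5 (17.7%) and the no-nitrogen groups for 0 (15.2%). The 8 loci were taken by this order, while the shares are over probe sets of any order, so counts and shares are not like for like. In Lhca2 and PSAF the order was another, and all neighbours overlapped. The same was seen on the second probe set of PSAL. The SD between replicates, pooled over the 4 groups, was 0.456 to 0.819 for the 10 loci, against a median of 0.464 over all loci tested.

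As a description of likeness over the 8 arrays, each locus was set against the mean of the other 9, with all arrays sharing the same scaling. Pearson's r was 0.990 for PSAD, 0.979 for PSAG and PSAH, and 0.929 to 0.952 for Lhca1, Lhca3, Lhca4, PSAK and PSAL. It was 0.645 for Lhca2 and 0.611 for PSAF. Without the first no-nitrogen replicate of Varadan, the first 8 lay between 0.833 and 0.970, Lhca2 was at 0.260 and PSAF at 0.180. Within the set, the pair Lhca1 and Lhca4 reached 0.983 and the pair Lhca3 and PSAK reached 0.994. The 5 loci outside the set most like its mean were Os02g0121500 (r = 0.994), Os09g0367900 (0.981), Os06g0694500 (0.980), Os04g0414700 (0.980) and Os08g0119800 (0.980), of 21500 loci.

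Other nuclear genes of the light reactions were counted from a list of 26 loci, of which 25 had a probe set and were tested: 5 further loci listed for photosystem I, 7 for the antenna of photosystem II, 6 for its subunits and 7 for electron carriers and ATP synthase. None of the 25 was called by limma in any comparison. For the average over varieties (0.183% of all tested probe sets called), 12 had an unadjusted p under 0.05, against 13.4% of all. The average nitrogen difference was negative for 25 of 25, against 52% of all, with a median of -0.95. The median was -1.34 in Varadan and -0.57 in Prasanna. The 5 further photosystem I loci had a median of -1.23 (range -1.74 to -0.70). The lowest of these 5 had a Pearson's r of 0.07 with the mean of the members, against 0.935 to 0.980 for the others. Its second no-nitrogen replicates were the lower ones, with log2 signals of 9.29 against 11.57 in Varadan and 9.21 against 12.26 in Prasanna.

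PSB28, a factor of photosystem II assembly, had the most negative estimate of the photosystem II subunits, at -2.70 ± 0.74 (adjusted p = 0.214, limma). Its log2 signals were 9.91 and 12.43 in Varadan without nitrogen, against 14.58 and 14.03 in Varadan with supplemented nitrogen. In Prasanna they were 9.90 and 12.80 without nitrogen, against 13.81 and 13.43 with supplemented nitrogen. All 4 no-nitrogen arrays were lower than their supplemented ones, and the first replicates were lower than the second in both varieties. At the other end of the same group, OEE3, of the oxygen-evolving complex, was at -0.61 ± 0.26 (adjusted p = 0.373, limma). CAB2R, a chlorophyll-binding protein of photosystem II, was at -0.61 ± 0.24 (adjusted p = 0.341, limma), the least negative of its antenna group.

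A ferredoxin gene (ADI1), of the protein family that takes electrons from photosystem I, had the most negative estimate of the carriers. Its log2 signals were 12.51 and 15.88 in Varadan without nitrogen, against 16.72 and 16.26 in Varadan with supplemented nitrogen. Prasanna gave 13.13 and 16.05 without nitrogen, against 15.94 and 15.90 with supplemented nitrogen. The second no-nitrogen replicate of Prasanna was above both supplemented arrays, and the average of -1.81 ± 0.85 (adjusted p = 0.405, limma) came mostly with the first replicates. The least negative carrier was petC, the Rieske protein of the cytochrome complex that reduces plastocyanin, at -0.20 ± 0.39 (adjusted p = 0.849, limma). Its Varadan arrays lay as those of PSAF did, with the supplemented ones between the no-nitrogen ones. The log2 signals of petC were 13.44 and 15.08 in Varadan without nitrogen, against 14.82 and 14.74 in Varadan with supplemented nitrogen. In Prasanna they were 13.93 and 14.91 without nitrogen, against 14.27 and 14.31 with supplemented nitrogen. Unlike for PSAF, the supplemented arrays of Prasanna also lay between the no-nitrogen ones. For petC, too, the second no-nitrogen replicate was the highest array of its variety in both varieties.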

How the data were processed

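Total RNA from the shoots was hybridised, biotin-labelled, to Affymetrix rice arrays, per the labels' protocols. The authors deposited log2 values, and a table of linear intensity values that matched them after log2; MAS5 is named in the submitters' processing notes, and every array had a 2% trimmed mean of 500. Starting from the deposited log2 values, the 187 control probe sets were left out, as were probe sets with a mean log2 under the 40th percentile (4.48), which left 34333. limma 3.58.1 in R 4.3.3 (lmFit, eBayes with trend) fitted 1 mean for each of the 4 groups on all 8 arrays (4 residual degrees of freedom). Differences are without minus with supplemented nitrogen, or Varadan minus Prasanna, with 2-sided tests adjusted by Benjamini-Hochberg over all tested probe sets at 0.05. The fit was tested on simulated data. The probe set with the highest mean stood for a locus. All 10 members are named, with, from the list of other light-reaction genes, annotated loci that passed the test or had the most negative or most positive average nitrogen difference of their group, and the 5 loci most alike by Pearson's r. Members and lists were chosen with earlier results of these data known. Equal replicate numbers were not taken as pairs. Filters, variance prior, normalization, array weights, model terms, replicate block, left-out arrays and the choice of probe set were varied. Only 2 arrays per group limit the precision.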

Additional observations from a re-analysis of the deposited data

How the results depend on the processing

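With 2 arrays per group the precision is low, for bright probe sets such as that of PSAF as for dim ones. The count of called member probe sets was 0 in all 6 comparisons. It stayed 0 in 94 of 97 pairings of an alternative setting with a comparison. The exceptions came when both second no-nitrogen arrays were left out: 12 for the average over varieties, 12 in Varadan and 1 in Prasanna. Filters, variance prior, array weights, additive model and replicate block leave the members' estimates as they are by construction, so the medians could move only with the normalization, the choice of probe set and the arrays left out. Leaving out both first or both second no-nitrogen arrays gave medians of -0.45 or -1.92 for Varadan, -0.25 or -1.50 for the difference between varieties, and 0.38 or -0.96 for Varadan minus Prasanna without nitrogen. Leaving out 1 array at a time, these medians ran from -1.92 to -0.45, from -1.67 to -0.13 and from -1.07 to 0.50, with both ends given by the no-nitrogen arrays of Varadan. The same arrays gave the range for the average over varieties, -1.09 to -0.33. For Prasanna the range was -0.33 to -0.18, with -0.33 reached without the first supplemented array of Prasanna. The average nitrogen difference of PSAF changed sign, with a range of -0.38 to 0.57 over single left-out arrays and -0.69 without both second no-nitrogen arrays. The cause was not tested. Over all probe sets, the average comparison called 63, and 1 without the variance trend, 120 with array weights, 246 in the additive model, 1202 without both first and 6032 without both second no-nitrogen arrays.

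The samples share only replicate numbers, and no label says that a number marks a shared batch or day. Replicate differences correlated at 0.460 between the no-nitrogen groups and at -0.039 to 0.109 between the others. Whether equal-numbered no-nitrogen arrays were handled together was not tested, and no label gives it. With a replicate block, 0 member probe sets were called in all 6 comparisons and 150 probe sets over all for the average over varieties; the differences themselves, with a median of -0.69, cannot move under a block in this balanced design.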
